A study of Mus musculus with 4 samples.

Results

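Cadherin switch genes are genes of cell to cell adhesion and cell shape whose balance differs between epithelial and motile cells. The 10 genes described here, Cdh1, Cdh2, Cdh3, Ctnna1, Vim, Snai1, Snai2, Zeb1, Zeb2 and Twist1, were picked by name, and each was found in the file through its current symbol or, for Zeb1 (Zfhx1a), Zeb2 (Zfhx1b) and Ctnna1 (Catna1), its older symbol. Each had 1 probe, so 10 of the 33012 probes on the array and 10 of the 15694 gene symbols in the file are described. RNA came from 4 cultured melanoma lines of the mouse strain C57Bl6: the parental B16 line, given in the protocols as B16F1, B16-RI from lymph node metastases of injected B16 cells, and B16-RII and B16-RIIL from lymph node and lung metastases of injected B16-RI cells. No line carries a targeted allele and none was treated with an agent. All 4 were grown in the same serum-containing medium, and their RNA was labelled with digoxigenin and hybridized to Applied Biosystems mouse arrays. The RNA of each line was a pool of different passage numbers. The study describes duplicate cultures and arrays of each line, but the labels tie 1 array to each line and the second arrays in the table were not used here. The values therefore come from 1 array per line, so no difference between lines has a replicate check, no test was run, and precision is limited by having so few arrays.

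Classical cadherins are transmembrane proteins that bind the same kind of cadherin on a neighbouring cell, and their tails reach the actin skeleton through beta-catenin and alpha-catenin. In the skin, melanocytes are held to keratinocytes by E-cadherin (Cdh1), and melanoma cells often carry N-cadherin (Cdh2) instead, an exchange called the cadherin switch. The transcription factors Snai1, Snai2, Zeb1, Zeb2 and Twist1 bind short E-box sequences in promoters and repress Cdh1, and Zeb2 and Snai2 are also made by normal cells of the melanocyte lineage. Vimentin (Vim) is the intermediate filament protein of mesenchymal cells and melanocytes.

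Promoter sequences from RefSeq (GRCm38.p6) were at hand for 4 of the 10 genes. The sequences of 3 are given because Vim and Zeb2 were detected in every line and Snai1 in a single line. Each is the 250 bases before the gene's annotated start, written 5′ to 3′ along the gene, and for Zeb2, with 4 starts in the table, the outermost start was taken. Capitals mark the E-box bound by the Snai and Zeb factors (CAGGTG, searched on both strands, so that it may read CACCTG) and the TATA box (TATAAA, searched on the gene's own strand).
Vim promoter, chr2:13574061-13574310, plus strand: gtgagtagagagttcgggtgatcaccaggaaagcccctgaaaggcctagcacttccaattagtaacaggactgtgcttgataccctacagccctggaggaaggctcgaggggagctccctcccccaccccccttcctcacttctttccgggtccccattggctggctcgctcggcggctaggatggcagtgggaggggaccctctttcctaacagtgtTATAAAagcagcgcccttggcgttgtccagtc
Zeb2 promoter, chr2:45117443-45117692, minus strand: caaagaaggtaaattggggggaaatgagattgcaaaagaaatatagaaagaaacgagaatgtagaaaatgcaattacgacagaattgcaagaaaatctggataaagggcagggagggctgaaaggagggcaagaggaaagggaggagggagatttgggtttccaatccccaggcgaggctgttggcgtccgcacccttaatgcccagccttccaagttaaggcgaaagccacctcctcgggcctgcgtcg
Snai1 promoter, chr2:167537945-167538194, plus strand: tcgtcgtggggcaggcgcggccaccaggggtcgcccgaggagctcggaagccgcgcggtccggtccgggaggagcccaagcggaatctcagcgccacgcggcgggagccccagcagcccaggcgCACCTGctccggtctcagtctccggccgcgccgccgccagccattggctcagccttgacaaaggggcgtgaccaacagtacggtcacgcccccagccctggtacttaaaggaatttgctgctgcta
The Snai1 sequence held 1 E-box, which began 126 bases before the start, and the Vim sequence held 1 TATA box, which began 32 bases before it. The Zeb2 sequence held neither. The E-box letters were found in 17.2% and the TATA letters in 7.59% of the 32851 promoter sequences of the same length, and the arrays do not measure binding to them.

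Signals are given as the normalized signal deposited by the authors, in array units. Gene identifiers are as in the file, and chromosomes are from RefSeq. Signals can be compared between lines for 1 probe and not between probes. A probe was called detected when its signal-to-noise ratio (S/N) was at least 3 and its error flag at most 5000. Of the 10 genes, Cdh2, Zeb2, Vim and Ctnna1 were detected on all 4 arrays. Cdh1, Snai1 and Snai2 were detected on some arrays, and Cdh3, Zeb1 and Twist1 on none. By line, 5 genes were detected in B16, 5 in B16-RI, 4 in B16-RII and 6 in B16-RIIL. The melanoma label was borne out by the melanocyte markers. Of 11 such genes 8 had a probe, and all 8 were detected in every line, among them Dct, Tyrp1 and Pmel, which make or shape melanin. Over the whole array, 13872 to 14855 probes were detected per line. The deposited values divide the raw signal by separate constants for 2 sets of probes, of 16524 and 16488 probes. Counting probes that all 4 arrays detected, B16-RI, B16-RII and B16-RIIL differed from B16 at the median by 0.39, 0.41 and 0.46 log2 units in the first set and by 0.07, 0.42 and -0.01 in the other. Of the 10 genes, Ctnna1, Snai2 and Zeb1 belong to the second set. The difference from B16 is therefore also given relative to the median of the gene's own probe set, as a centred difference.

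**Figure D1:**
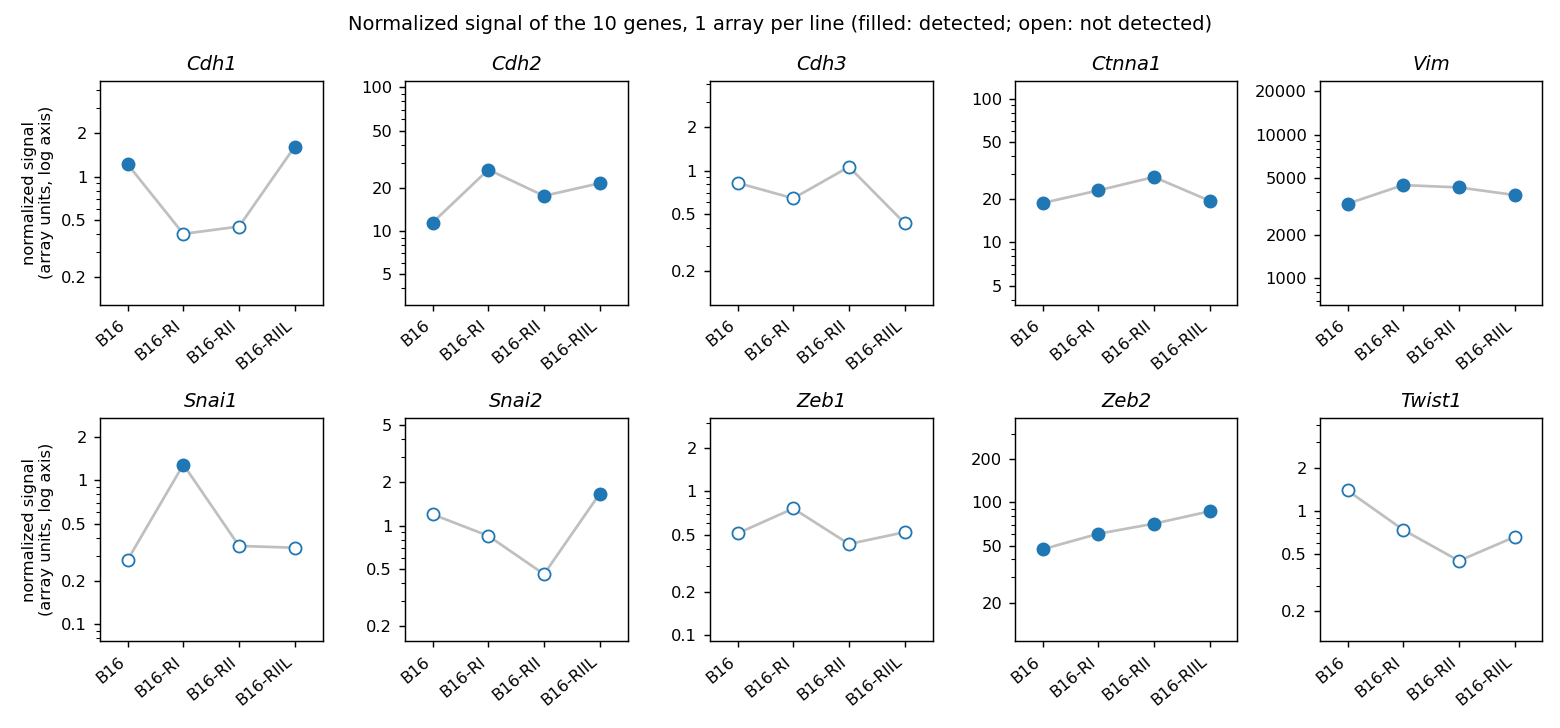
Normalized signal (log axis, array units) of the 10 genes on the B16, B16-RI, B16-RII and B16-RIIL arrays, 1 panel per gene, with filled points detected and open points not detected. Each panel spans the same ratio from bottom to top, so slopes can be compared. Cdh2 was at 11.5 in B16 and between 17.6 and 26.8 in the passaged lines, and Zeb2 went from 47.1 in B16 to 86.6 in B16-RIIL.

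Cdh2 (mCG141325, chromosome 18), which encodes N-cadherin, was higher in each passaged line than in B16. Its normalized signal was 11.5 in B16, 26.8 in B16-RI, 17.6 in B16-RII and 21.6 in B16-RIIL, with an S/N between 19.8 and 40.3. B16-RI was therefore the highest of the lines and B16 the lowest, and the lymph node line and the lung line of the second passage, 1.22-fold apart, were close to each other. The signal was 2.34-fold that of B16 in B16-RI, 1.53-fold in B16-RII and 1.88-fold in B16-RIIL. On the log2 scale these differences are 1.22, 0.62 and 0.91, and the centred differences are 0.83, 0.21 and 0.45. Cdh2 thus passed a limit of 2-fold in B16-RI with the deposited values and not with centred probe sets, while its direction was the same under each scaling run. Of 12168 probes detected on both B16 and B16-RI, 1.53% lay at least as far above B16 in the deposited values, and 2.31% with centred probe sets. As a measure of probe error, the 612 pairs of probes with 1 gene identifier that were detected on both of these arrays gave centred differences that were apart by a median of 0.24 log2 units and at the 90th percentile by 0.77.

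Genes with a course like that of Cdh2 were looked for among the 7443 other genes detected on all 4 arrays, by the Euclidean distance of their 3 differences from B16. The nearest were AU020939, an expressed sequence, at 0.20 log2 units, and Qk, which encodes the RNA-binding protein quaking, at 0.21. Qk was above B16 by 1.15, 0.81 and 0.96 log2 units in B16-RI, B16-RII and B16-RIIL, and AU020939 by 1.42, 0.63 and 0.97. The likeness rests on 3 differences and 1 array per line.

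Cdh1 (mCG20483.1, chromosome 8), which encodes E-cadherin, was near the limit of detection throughout. Its normalized signal was 1.22 in B16 and 1.62 in B16-RIIL, with an S/N of 3.67 and 3.71. On B16-RI and B16-RII it was not detected, with signals of 0.40 and 0.45 and an S/N of 0.62 and -0.16. Both lymph node lines therefore read below B16, by approximate ratios of 2.90-fold in B16-RI and 2.71-fold in B16-RII. For such approximate ratios an undetected signal was replaced by the lowest detected signal of its array. It was kept where it was itself higher, as the 0.45 of B16-RII was. A probe can go undetected at a signal above that lowest one, so these ratios are not lower limits and the true difference may be smaller. These ratios are on the deposited scale, and the one in B16-RII was 2.38-fold with quantile normalization and 2.45-fold with median scaling. The lung line lay above the lymph node line of the same passage by an approximate ratio of 3.60-fold, and 3.27-fold with quantile normalization. Against B16 it was 1.33-fold higher, which is 0.41 log2 units and, centred, -0.05. With a stricter S/N limit of 5 none of these Cdh1 signals counts as detected. Cdh3 (mCG20482.2, chromosome 8), which encodes P-cadherin and is a close relative of Cdh1, was not detected in any line, with signals from 0.43 to 1.06 and an S/N of at most 1.91.

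Ctnna1 (mCG123912.2, chromosome 18), which encodes the alpha-catenin that links cadherin complexes to actin, differed little between lines. Its signal was 18.8 in B16, 23.0 in B16-RI, 28.5 in B16-RII and 19.5 in B16-RIIL. It was highest in B16-RII, but the centred differences from B16 were 0.22, 0.18 and 0.06 log2 units, and the sign in B16-RII and B16-RIIL depended on the scaling.

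**Figure D2:**
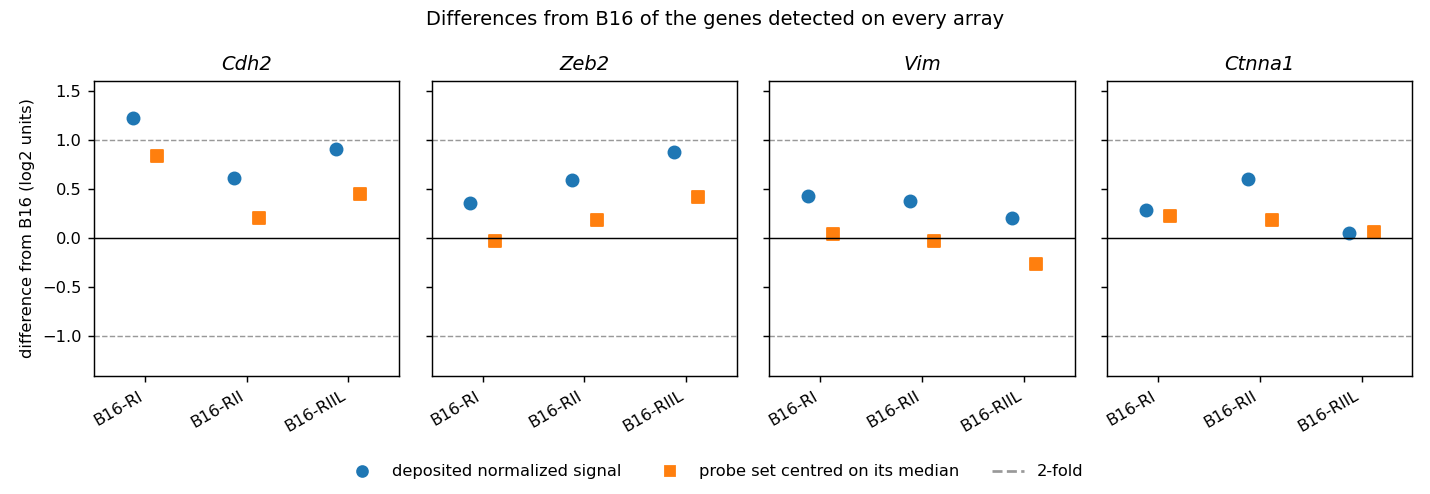
Difference from B16 in log2 units (vertical axis) of Cdh2, Zeb2, Vim and Ctnna1 in B16-RI, B16-RII and B16-RIIL, as deposited (circles) and relative to the median of the gene's probe set (squares). Dashed lines mark 2-fold. The deposited Cdh2 value in B16-RI, 1.22, is the point beyond the 2-fold line, and its centred value is 0.83.

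Zeb2 (mCG8151.2, chromosome 2) was the transcription factor of the group with a clear signal. It was detected with an S/N of 54.1 or more on every array, at a normalized signal of 47.1 in B16, 60.4 in B16-RI, 71.0 in B16-RII and 86.6 in B16-RIIL. In these deposited values B16-RI lay above B16, and both lines of the second passage lay above B16-RI, with the lung line highest. It was 1.28-fold, 1.51-fold and 1.84-fold above B16, so no line passed 2-fold. The centred differences were -0.03, 0.18 and 0.42 log2 units, so the direction in B16-RI depended on the scaling, and those in B16-RII and B16-RIIL did not. Of 12561 probes detected on both B16 and B16-RIIL, 8.96% lay at least as far above B16 as Zeb2 did in the deposited values, and 15.6% with centred probe sets. These ranks of Cdh2 and Zeb2 were chosen after the data were seen.

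The other factors were at or below the limit of detection. Snai1 (mCG20093.2, chromosome 2) was detected in B16-RI alone, at a signal of 1.29 with an S/N of 3.73. Its signals were 0.28 in B16, 0.35 in B16-RII and 0.34 in B16-RIIL. By approximate ratio it was 4.16-fold higher in B16-RI than in B16 on the deposited scale and 3.17-fold with centred probe sets. Snai2 (mCG124753.1, chromosome 16) was detected in B16-RIIL alone, at 1.67 with an S/N of 6.56. By approximate ratio it was 3.63-fold above B16-RII, where the signal was 0.46. Against B16, where Snai2 had a signal of 1.20 and an S/N of 2.59, just short of detection, the ratio was 1.39-fold. It was 1.18-fold with scaling to the 75th percentile. Zeb1 (mCG12663.2, chromosome 18) had signals from 0.43 to 0.76 and Twist1 (mCG12458.1, chromosome 12) from 0.45 to 1.39, with an S/N of at most 1.39 and 0.00. For these 2 genes no difference between lines can be read at this signal over background.

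**Figure D3:**
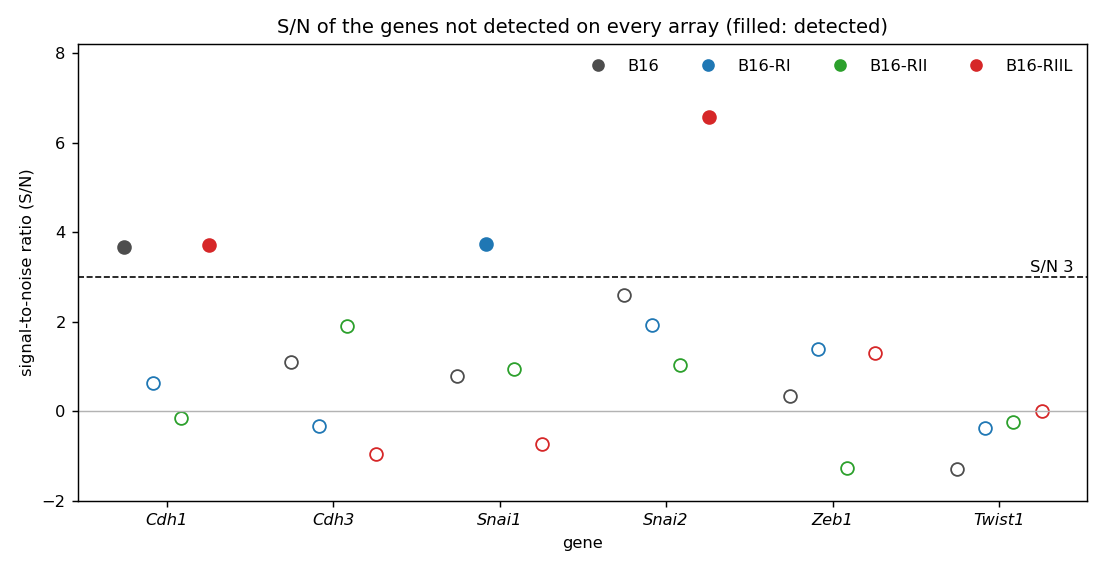
S/N (vertical axis) of the 6 genes that were not detected on every array, coloured by line, with the detection limit of 3 as a dashed line. Above the line lie 2 points of Cdh1 and 1 each of Snai1 and Snai2, of which Snai2 in B16-RIIL at 6.56 is the only one above 5.

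Vim (mCG15706.1, chromosome 2) had a strong signal in every line, of 3304 in B16, 4456 in B16-RI, 4293 in B16-RII and 3802 in B16-RIIL. B16 was the lowest, and the passaged lines were 1.35-fold, 1.30-fold and 1.15-fold above it. The centred differences were 0.04, -0.03 and -0.26 log2 units, so the direction in B16-RII and B16-RIIL depended on the scaling. Vim carried a flag of 4 on each passaged array and 0 on B16. Between 7 and 34 probes per array carried this flag, and none of them had a normalized signal under 1710. What the flag stands for is not given in the sources used here.

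The 10 genes were set against all probes with a limit of 2-fold and detection on the brighter array. In B16-RI, 2 of the 6 genes that could be measured were above B16, Cdh2 and Snai1, and 1 was below, Cdh1. Of all probes, 10.1% were above and 9.25% below in this comparison. In B16-RII 0 of 5 genes were above B16 and 1 was below, again Cdh1, where 13.1% of all probes were above and 7.54% below. In B16-RIIL 0 of 6 genes were above and 0 below, against 12.7% and 8.39% of all probes. Between the metastasis lines of the second passage, 2 of 6 genes, Cdh1 and Snai2, were higher in B16-RIIL than in B16-RII and 0 were lower, against 7.59% and 9.35% of all probes. With centred probe sets the shares of all probes above and below B16 were 7.71% and 11.7% in B16-RI, 6.71% and 11.3% in B16-RII, and 8.40% and 9.99% in B16-RIIL, and 9.08% and 6.41% of probes were above and below B16-RII in B16-RIIL. In each of the comparisons the side with more probes was thus the opposite one. Of these calls, Cdh2 in B16-RI was made on signals detected on both arrays. The other 5, Cdh1 in 3 comparisons and Snai1 and Snai2 in 1 each, rest on a signal that was not detected on the dimmer array. With so few genes and 1 array per line, the counts are a description of these arrays.

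Genes that work with the 10 were described by lists. Their counts at 2-fold stand beside shares over all probes of 10.1% above and 9.25% below B16 in B16-RI, 13.1% and 7.54% in B16-RII, and 12.7% and 8.39% in B16-RIIL, or the centred shares given above where probe sets were centred, and lists this short cannot be set apart from them. Of 20 other cadherins 14 had a probe and 1 was detected anywhere. This was Cdh13, which encodes T-cadherin, a cadherin held in the membrane by a lipid anchor. Its signal was 5.86 in B16 with an S/N of 9.86, and it was not detected in the passaged lines, at 0.79, 1.02 and 0.31. By approximate ratio Cdh13 was 7.42-fold, 5.75-fold and 18.3-fold lower than in B16, in the direction opposite to Cdh2.

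Of 17 catenins and junction partners 14 had a probe and 6 were detected on all arrays. At the 2-fold limit 2 of 7 measured genes were above and 1 below B16 in B16-RI, 1 and 2 of 8 in B16-RII, and 2 and 0 of 9 in B16-RIIL. With centred probe sets 1 gene was above in B16-RI, and the other counts were the same. This was Ctnnal1, an alpha-catenin relative named after its values were seen, at 2.22 in B16 and 5.39, 4.26 and 2.85 in the passaged lines, 2.43-fold above B16 in B16-RI. Also named after their values were seen were the catenins that bind the cadherin tail. Beta-catenin (Ctnnb1) had signals of 90.0, 124, 105 and 122 and p120-catenin (Ctnnd1) of 5.0, 8.41, 6.32 and 5.43 in the order B16, B16-RI, B16-RII and B16-RIIL. Vcl, which encodes vinculin of the actin linkage, was lower than in B16, where it was at 11.01, with 3.89 in B16-RI, 3.70 in B16-RII and 6.07 in B16-RIIL. Nectin2, an immunoglobulin-type adhesion molecule of adherens junctions, was higher, at 4.03 in B16 against 8.89, 15.0 and 17.8. It was 2.21-fold, 3.73-fold and 4.42-fold above B16, and in B16-RI the centred difference, 0.75, was under the limit. Its S/N did not rise with its signal, at 5.42 in B16 and 7.48, 5.54 and 5.99 in B16-RI, B16-RII and B16-RIIL. Nectin1 was detected in B16 alone, at 1.90, and Pkp3, a plakophilin of desmosomes, in B16-RIIL alone, at 1.31.

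Of 18 epithelial genes 16 had a probe and 6 were detected in all lines. Above B16 were 2 and below it 1 of 9 measured in B16-RI, 0 and 1 of 7 in B16-RII, and 0 and 0 of 7 in B16-RIIL. Epcam, an adhesion molecule of epithelia, had the same detection as Cdh1. It was detected in B16 at 1.53 and B16-RIIL at 2.10, with an S/N of 3.31 and 4.21, and not in B16-RI and B16-RII, at 0.52 and 0.36. Krt7 and Krt19, keratins of simple epithelia, were detected in B16-RI alone, at 0.91 and 1.81. Of 14 mesenchymal and filament genes 13 had a probe. Des, which encodes desmin, and Gfap, an intermediate filament protein of glia, were both called above B16 in B16-RII and B16-RIIL. Des was not detected in B16 and had signals of 1.82, 6.92 and 6.08 in the passaged lines. Gfap was detected in B16-RII at 9.25 and B16-RIIL at 3.93. Among genes of this list detected on both arrays, the median centred difference from B16 was 0.12, -0.02 and 0.06 log2 units in B16-RI, B16-RII and B16-RIIL, beside -0.10, 0.07 and -0.04 for epithelial genes.

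Of 19 other transition regulators 10 had a probe. Above B16 were 2 of 6 measured in B16-RI, 3 of 6 in B16-RII and 0 of 5 in B16-RIIL, and 0 were below. Id3, which encodes an inhibitor of basic helix-loop-helix factors such as Twist1, was not detected in B16 or B16-RIIL. It had signals of 1.75 in B16-RI and 3.98 in B16-RII and was, by approximate ratio, 3.8-fold and 8.65-fold above B16. Id2, of the same family, was at 130 in B16 and 260, 305 and 203 in the passaged lines, and Tcf3, which encodes the E2A partner of such factors, at 2.84 against 5.49, 6.85 and 4.98. With centred probe sets Id2 went from 2.00-fold to 1.91-fold above B16 in B16-RI and from 2.35-fold to 1.76-fold in B16-RII, and Tcf3 from 2.41-fold to 1.82-fold in B16-RII, so that none of these passed 2-fold. This left 1 gene above B16 in each of these lines and brought 1 below it. The gene below was Snai3, a member of the Snai family named after its values were seen. It had signals of 2.03 in B16, 1.16 in B16-RI, where it was not detected, 1.19 in B16-RII and 1.8 in B16-RIIL. Its centred difference from B16 was -1.18 in B16-RII and, as an approximate value, -1.20 in B16-RI.

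**Figure D4:**
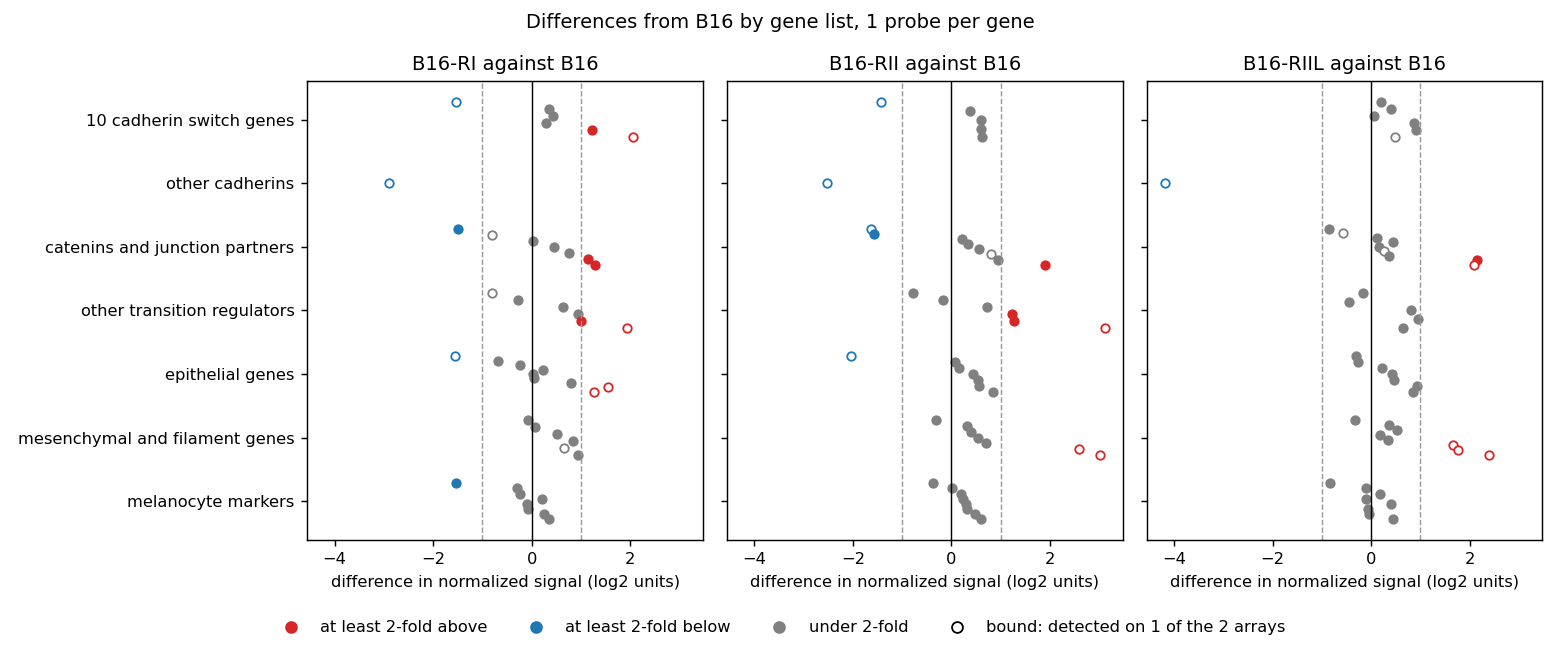
Difference from B16 in log2 units (horizontal axis) of the genes measured in each of 7 lists, by list, in B16-RI, B16-RII and B16-RIIL. Filled points were detected on both arrays. Open points, labelled bound, were detected on a single array and show approximate ratios. Red and blue points lie at least 2-fold above and below B16, and dashed lines mark 2-fold. Cdh13 is the open point of the other cadherins, on the left in each panel.

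Lines cultured from metastases can hold host cells, and fibroblasts also make N-cadherin and vimentin, so markers of other cells were measured. Of 8 fibroblast markers, 3 were detected in B16, 2 in B16-RI, 3 in B16-RII and 3 in B16-RIIL, with summed normalized signals of 15.1, 23.3, 15.1 and 24.5. All summed signals in this paragraph include probes that were not detected, so they cannot be read as levels of a cell type. Col1a2, which encodes a chain of type I collagen, was detected in all lines at 6.32, 15.0, 7.40 and 16.7, and was high in B16-RI and B16-RIIL, the lines in which Cdh2 was highest. It was 2.37-fold above B16 in B16-RI and 2.64-fold in B16-RIIL, and the centred differences of 0.85 and 0.94 log2 units were, like the 0.83 of Cdh2 in B16-RI, just under 2-fold. Col1a1, the other chain of this collagen, was highest in B16, at 3.5 against 1.36, 2.22 and 2.41, and was not detected in B16-RI, where Cdh2 was highest. Pdgfrb, a growth factor receptor, was at 1.74 in B16, 2.90 in B16-RI and 1.61 in B16-RII, and was highest in B16-RI like Cdh2. It was not detected in B16-RIIL. Lum, which encodes lumican of the matrix, was detected in B16-RIIL alone, at 1.45 against 1.31 in B16. Dcn, Col3a1, Pdgfra and Thy1 were not detected in any line. The part of fibroblasts in the Cdh2 signal was not tested. Of 7 endothelial markers only Pecam1 was detected, in B16-RII and B16-RIIL, and the summed signals ran from 4.0 to 6.3. Of 6 macrophage markers only Csf1r was detected, in B16 alone, with summed signals from 3.9 to 4.5. Of 7 lymphocyte markers, Cd79a was detected in all lines, with summed signals from 60.5 to 83.4, and Ptprc, carried by all white blood cells, was not detected in any. Of 5 keratinocyte markers, which mark cells rich in E-cadherin, 4 had a probe. Krt14 was detected in B16, B16-RII and B16-RIIL, at 5.82, 6.30 and 2.57, and Krt1 in B16-RII, while 0 were detected in B16-RI. The summed signals were 10.9, 10.4, 10.5 and 7.8 in the order B16, B16-RI, B16-RII and B16-RIIL. In B16-RI the undetected Krt5 probe alone read 5.33.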

How the data were processed

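The authors deposited a raw and a normalized intensity for each probe, with a signal-to-noise ratio and an error flag, which are scores of the Applied Biosystems analyzer. The normalized intensity was found to be the raw intensity divided by 1 constant for each array and probe set. The paper names quantile normalization, which was run as an alternative. Of the table, 16 columns match the samples. Another 44 columns were not used, of which 20 per-sample and 10 ratio columns belong to second arrays that the labels assign to no sample, and 14 are log2 and ratio columns derived from the arrays analysed.

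From the deposited normalized intensity, log2 differences were taken without a pseudocount. A side that was not detected (S/N under 3 or flag over 5000, the limits of the paper) was raised to the lowest detected signal of its array, unless already higher. Its ratio is approximate and not a lower limit, since a probe can go undetected above that signal. A gene with several probes was represented by the brightest over the 4 arrays. Percentages of all probes are over probes detected on at least 1 of the arrays compared. The 10 genes and the lists were chosen with earlier results of these data known. Named from each list were up to 4 genes, with the largest difference from B16 among those at least 2-fold from it in a passaged line, apart from those stated. For a member detected on all arrays and called in a passaged line, the nearest genes were named. Some items that these rules pick are not reported here. Gene names and promoters are from RefSeq, assembly GRCm38.p6, and the build behind the array is not given in the sources used here. Python 3.11.15, numpy 2.4.6, pandas 2.3.3 and matplotlib 3.10.9 were used. The counting rule was run on simulated data with planted differences beyond 2-fold and every probe used detected. That run did not test the treatment of undetected signals.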

Additional observations from a re-analysis of the deposited data

How the results depend on the processing

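Scaling, detection, size limit and choice of probe were varied for 8 counts of the 10 genes, and scaling and the treatment of undetected signals for 23 differences. No count differed under quantile, median or 75th percentile scaling or with undetected signals as measured, but most of these counts are 0 or 1. The choice of probe could change nothing, since each gene has 1 probe, nor could the treatment of undetected signals change a gene detected on both arrays. Of the differences, Cdh2 in B16-RI changed its side of 2-fold, at 0.83 log2 units with centred probe sets. No called difference changed sign under the scalings run. In B16-RI, where 2 genes were above B16, 1 was above with centred probe sets, 1 with an S/N of at least 5, 1 with detection on both arrays and 1 at 4-fold. Of the 2 genes above B16-RII in B16-RIIL, 1 was left with an S/N of at least 5, and 0 with detection on both arrays and 0 at 4-fold. Cdh1, the 1 gene below B16 in B16-RI and in B16-RII, was not called with an S/N of at least 5, with detection on both arrays or at 4-fold, which leaves 0 in each. At 1.5-fold, 3 genes were above B16 in B16-RII and 2 in B16-RIIL, where 0 were at 2-fold. Without a detection filter 3 genes were below B16 in B16-RII and 1 in B16-RIIL, and 1 was below B16-RII in B16-RIIL. The filters and limits act by their construction. No paired analysis was possible because the labels tie 1 array to each line, and for the same reason none could be left out. Signal over background limits the values of Cdh1, Cdh3, Snai1, Snai2, Zeb1 and Twist1.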
